A study of Mus musculus with 16 samples.

Results

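Transcripts of 10 genes of the ERK pathway, a kinase cascade that carries growth factor signals to the nucleus, and of its feedback loops were followed in the efferent ducts and the caput epididymis of the mouse. The members were set by gene symbol: the receptor gene Ros1, the ETS transcription factor genes Etv4 and Etv5, the phosphatase genes Dusp4, Dusp5 and Dusp6, and the inhibitor genes Spry2, Spry4, Spred1 and Spred2. Every probe set (a group of array probes read as 1 value) that carried exactly 1 of these symbols was used, which gave 28 of 34958 such probe sets and 10 of 18194 genes. The arrays measured RNA only, and neither ERK protein nor its phosphorylation was measured.

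RNA came from adult male mice of strain 129BL/6 and was hybridised to 16 Affymetrix arrays, 8 per tissue. The efferent ducts carry sperm and fluid out of the testis, and the caput is the head of the epididymis that receives them. Each tissue had 4 groups of 2 arrays: sham-castrated mice with vehicle, castrated mice with vehicle, castrated mice with testosterone propionate and castrated mice with estradiol. Surgery preceded the injection by 14 days and tissue was collected 12 hours after it. Each hormone dose was 0.015 mg, in the oil that also served as vehicle, 100 µL of sesame oil with 10% ethanol. All hormone-treated mice were castrated, so no hormone was tested in animals with testes. Castration takes away the luminal fluid of the testis and its circulating hormones together. Nothing in the labels says whether 1 array held 1 animal or a pool, so the p-values measure only the spread between these samples.

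In the proximal caput, called the initial segment, ERK activity is known to be high and to depend on factors that the testis releases into the lumen, a route named lumicrine. ROS1 is a receptor tyrosine kinase of that epithelium, and NELL2, secreted by germ cells, is its known luminal ligand. ETV4 and ETV5 are transcription factors whose genes are switched on by ERK signalling. DUSP4, DUSP5 and DUSP6 remove phosphate from ERK, and Sprouty and Spred proteins hold back the steps from receptor to RAF, so their genes are widely read as feedback outputs of the cascade.

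Array quality differed within the efferent duct. The log2 ratio of 3' over 5' actin signal, which rises as transcripts are shortened, lay between 3.11 and 3.87 for the 4 arrays of vehicle-treated mice and between 0.913 and 1.93 for the 4 of hormone-treated mice. The background level, the highest of 27 bacterial control probe sets on an array, ranged from 8.09 to 14.3 and from 2.33 to 3.97 in intensity. In the caput the actin ratio was 0.636 to 1.20 and the background 7.82 to 12.3. Of 7 marker genes of caput principal cells, none was below background on both sham caput arrays, and their summed intensity was 55579.5 to 55592 there against 2997 to 6876 in the sham duct. Of 7 marker genes of duct epithelium, all measured, the sum was 6066 to 6312 in the sham duct against 1453 to 1501 in the sham caput, where Cubn was below background on both arrays.

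The members lie on the following chromosomes of GRCm38.p6, the build of the RefSeq gene table: Spred1 on 2, Dusp4 on 8, Dusp6 and Ros1 on 10, Etv4 and Spred2 on 11, Spry2 on 14, Etv5 on 16, Spry4 on 18 and Dusp5 on 19. Windows from 250 bases before to 50 after the start of transcription were taken from RefSeq's table of the same build for 7 members, all but Etv4, Dusp4 and Spry4. The windows of 4 members that fell in the castrated caput are printed 5′ to 3′ on the gene's own strand. Capitals mark matches to the motifs searched. For Etv5 the more upstream of its 2 windows is shown.

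Etv5, chr16:22439521-22439820, minus strand: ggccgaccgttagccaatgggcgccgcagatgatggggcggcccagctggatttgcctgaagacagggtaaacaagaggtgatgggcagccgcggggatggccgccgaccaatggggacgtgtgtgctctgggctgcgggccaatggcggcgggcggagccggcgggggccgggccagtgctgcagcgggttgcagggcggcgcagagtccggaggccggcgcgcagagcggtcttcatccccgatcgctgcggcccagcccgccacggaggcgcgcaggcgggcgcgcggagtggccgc
Dusp6, chr10:99262981-99263280, plus strand: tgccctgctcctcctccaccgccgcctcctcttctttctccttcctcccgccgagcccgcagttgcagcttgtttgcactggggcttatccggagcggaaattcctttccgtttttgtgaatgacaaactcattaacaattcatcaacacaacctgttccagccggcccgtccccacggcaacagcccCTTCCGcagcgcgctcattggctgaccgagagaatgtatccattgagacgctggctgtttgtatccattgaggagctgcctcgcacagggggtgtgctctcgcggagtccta
Dusp5, chr19:53528895-53529194, plus strand: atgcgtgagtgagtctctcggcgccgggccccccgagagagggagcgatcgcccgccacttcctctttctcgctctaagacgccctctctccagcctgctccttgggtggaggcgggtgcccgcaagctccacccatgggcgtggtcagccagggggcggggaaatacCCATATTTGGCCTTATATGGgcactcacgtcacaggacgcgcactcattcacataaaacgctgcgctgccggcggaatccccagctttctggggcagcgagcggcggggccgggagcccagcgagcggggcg
Ros1, chr10:52195195-52195494, minus strand: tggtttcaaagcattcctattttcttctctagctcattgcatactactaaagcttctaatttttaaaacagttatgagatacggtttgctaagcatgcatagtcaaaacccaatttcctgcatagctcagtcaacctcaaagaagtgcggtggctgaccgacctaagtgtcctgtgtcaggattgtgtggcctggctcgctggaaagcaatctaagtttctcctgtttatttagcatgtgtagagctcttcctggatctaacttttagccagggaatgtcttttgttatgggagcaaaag

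Motifs were searched on both strands, and overlapping matches were counted. The core of the ETS motif, CGGAAG, was present in 16.9% of 32851 windows of this length. It lies within the longer ETS form CCGGAAGT, which 3.89% of windows held. The Dusp6 window held 1 core, on the opposite strand at position -62 from the start, and the windows of Spred2 and Spred1 held 1 and 2. The Dusp5 window held 2 adjoining CArG boxes, the motif of serum response factor, at positions -82 and -72, a motif found in 1.63% of windows. The cyclic AMP response element TGACGTCA (1.79% of windows) and the AP-1 motif TGANTCA (7.81%) were in no member's window. The windows of Etv5, Ros1 and Spry2 held none of the motifs searched, which says only that these letters are not in these 300 bases. GC content was 74.0% in the printed Etv5 window, 66.7% in that of Dusp5, 57.3% in that of Dusp6 and 41.7% in that of Ros1.

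The first comparison asked which members depend on the testis in the caput, castrated against sham mice with vehicle only. Etv5, Dusp4, Dusp5, Dusp6 and Ros1 fell after castration. These 5 of 10 members passed limma's test at an adjusted p of 0.05, all downward, where 6.12% of all 18194 genes were called lower. The members were chosen with earlier results of these data known, so the shares are set side by side only as a description. The estimates of all 10 members lay below 0, with a median of -1.58 on the log2 scale against 0.064 over all genes. Caput principal cell markers moved in the same direction, 6 of 7 falling, with a summed intensity of 55579.5 to 55592 on the sham arrays and 6013 to 6164 on the castrated arrays. All 6 sperm and germ cell markers fell too, with sums of 1222 to 5548 and 88.1 to 93.0, and with Tnp2, Odf1 and Gsg1 below background on both castrated arrays. Among 5 markers of narrow and clear cells, 3 were called higher and 1 lower, with sums of 787 to 839.5 and 1006 to 1072. The part of these shifts in the members' values was not tested. Without sham replicate 1 or castrated replicate 2, 3 of 10 passed. With only the 4 arrays compared in the fit none did (adjusted p = 0.0518 for Etv5 to 0.104 for Dusp5), and in 1 fit of all 16 arrays Dusp4 and Ros1 did not (0.0823 and 0.472). In whole tissue, fewer cells of a type and less RNA per cell cannot be told apart.

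**Figure D1:**
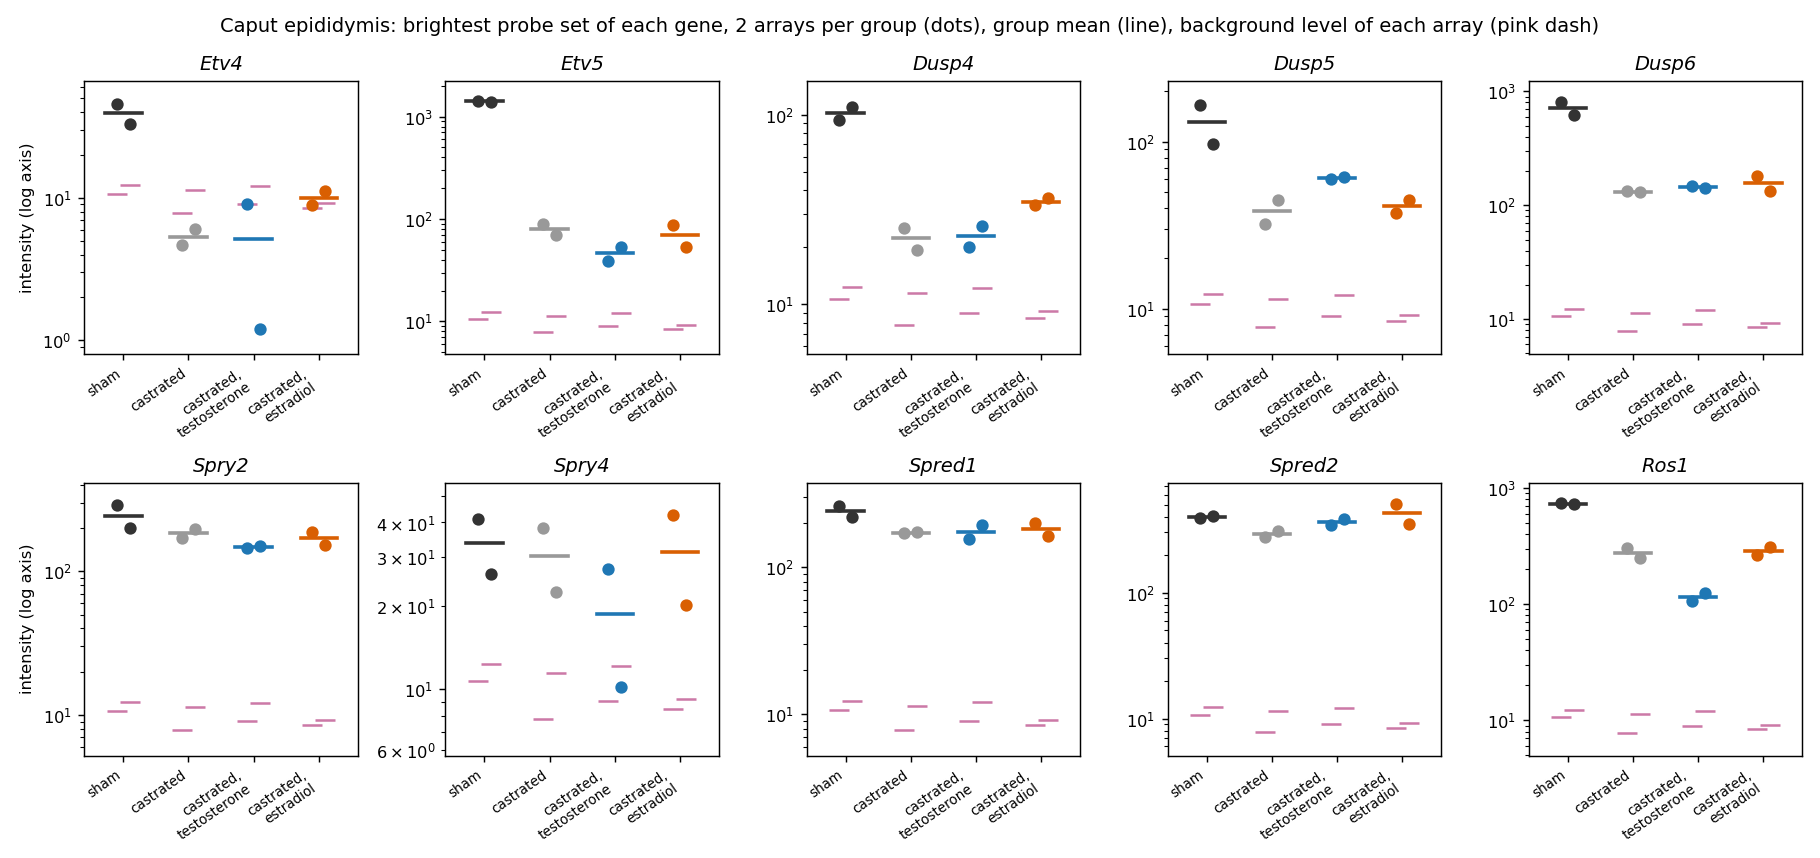
Intensity (log axis, its range set for each panel) of the 10 members in the caput, brightest probe set of each gene, for the 4 groups of 2 arrays. Dots are arrays, coloured lines group means and pink dashes each array's background. Etv5 sat at 1429 and 1385 on the sham arrays and at or below 90.3 on the 6 others, while the Spry4 groups overlap.

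Ros1, the receptor, read 735 and 726 in intensity on the 2 sham arrays and 304 and 249 on the castrated arrays. The groups did not overlap. The fall was 2.66-fold (log2 difference -1.41, 95% interval -1.84 to -0.98, limma adjusted p = 0.0114). This call ended without sham replicate 1 (adjusted p = 0.0666), sham replicate 2 (0.0600) or castrated replicate 2 (0.0632), with log2 differences of -1.40, -1.42 and -1.26.

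Etv5 had the largest called fall among the members' brightest probe sets. It read 1429 and 1385 on the sham arrays and 90.3 and 70.0 on the castrated arrays. Its fall was 17.7-fold (-4.14, interval -4.91 to -3.38, limma adjusted p = 0.00443). The other probe sets of the gene also fell in a fit over all 34958 probe sets, with log2 differences of -3.77 (limma adjusted p = 0.0216) and -3.71 (0.00801).

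Etv4, a close relative of Etv5 in the PEA3 subfamily of ETS factors, depended on the probe set. The probe set brightest over all arrays, 1443381_at, read 46.0 and 33.2 on the sham arrays and 4.66 and 6.04 on the castrated arrays, where both were below background. The level was at least 4.14-fold lower, counted against the background, and it did not pass (limma adjusted p = 0.102). The other probe set, 1423232_at, read 118 and 80.0 on the sham arrays and 4.29 and 1.93 on the castrated arrays. It was at least 10.3-fold lower and passed in the fit over probe sets (log2 difference -5.07, limma adjusted p = 0.0326). The mean of both probe sets passed as well (log2 difference -3.98, limma adjusted p = 0.0326).

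Dusp6, which encodes a cytoplasmic phosphatase with high preference for ERK, read 813 and 615 on the sham arrays and 133 and 129.9 on the castrated arrays. It fell 5.38-fold (-2.43, interval -2.96 to -1.89, limma adjusted p = 0.00611). Dusp4, the gene of a nuclear phosphatase, read 93.5 and 110.0 against 25.4 and 19.4 and fell 4.57-fold (-2.19, interval -2.72 to -1.67, limma adjusted p = 0.00781). Dusp5, whose product is likewise nuclear and specific for ERK, read 165 and 97.5 against 32.0 and 44.9 and fell 3.35-fold (-1.74, interval -2.52 to -0.97, limma adjusted p = 0.0258). Sham and castrated arrays did not overlap for any of the 3 phosphatase genes. The Dusp5 call ended without sham replicate 1 (-1.36, adjusted p = 0.0851), castrated replicate 1 (-1.50, 0.107) or castrated replicate 2 (-1.99, 0.0770), and with a replicate block (0.0556).

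The 4 inhibitor genes upstream of RAF did not pass in the caput. Spry2, a Sprouty gene, read 287 and 201 on the sham arrays against 170.0 and 197 after castration (log2 difference -0.39, interval -0.95 to 0.16, limma adjusted p = 0.293). Spred1 read 263 and 220.4 against 170.1 and 175 (-0.48, interval -0.94 to -0.02, limma adjusted p = 0.145). Spred2 read 394 and 408 against 278 and 309.8 (-0.45, interval -0.95 to 0.06, limma adjusted p = 0.200). For these 3 genes the sham arrays stood above the castrated arrays, and none of the intervals reaches below -0.95 on the log2 scale. Spry4 read 41.1 and 26.1 against 38.3 and 22.4, the groups overlapped, and its interval of -1.78 to 1.46 is the widest of the 4.

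**Figure D2:**
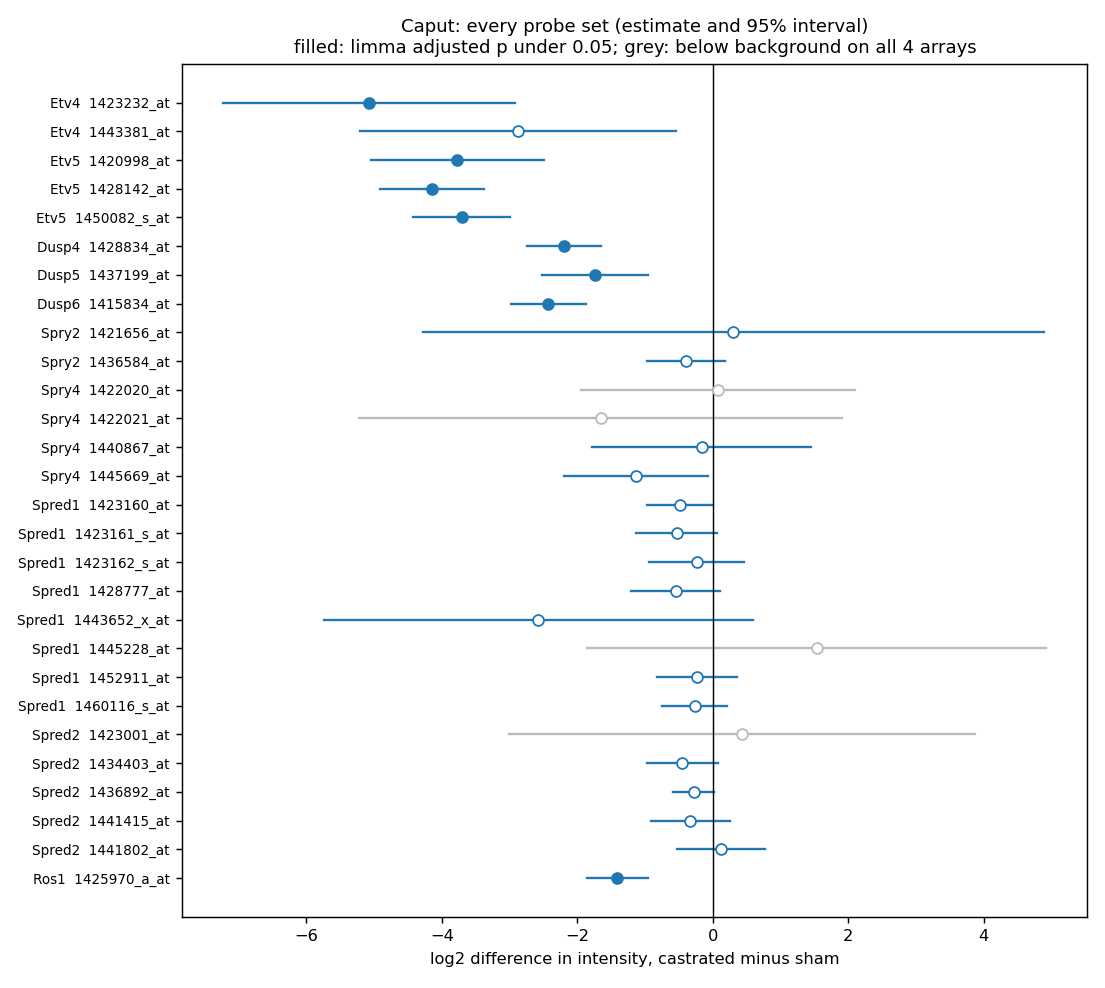
Log2 difference in intensity, castrated minus sham caput, for all 28 probe sets of the members, with 95% intervals from the fit over 34958 probe sets. Filled points passed limma's adjusted p of 0.05 and grey ones were below background on all 4 arrays. Every Etv5 probe set and no Spry or Spred probe set is filled.

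Probe sets of 1 gene share its transcripts and are not replicates. Of the 28, 8 passed and all 8 were lower, where 3.61% of all probe sets were called lower. They were the 3 of Etv5, 1 of the 2 of Etv4 and the only one of Dusp4, Dusp5, Dusp6 and Ros1. With sham replicate 1, castrated replicate 1 or castrated replicate 2 left out none passed, and with sham replicate 2 left out 1 did. Of the 8 probe sets of Spred1, 1 was below background on all 4 arrays 6 had estimates from -0.55 to -0.23, and 1443652_x_at, below background on both castrated arrays, was at least 2.40-fold lower. None of the 8 passed. Of the 5 of Spred2, 1 was below background on all 4 arrays and the rest lay between -0.45 and 0.12. Of the 4 of Spry4, 2 were below background on all 4 arrays, and 1445669_at read 31.8 and 23.8 against 18.7 and 8.42 (-1.13, limma adjusted p = 0.163).

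Other genes of the pathway moved in both directions in the castrated caput, where 6.12% of all genes were called lower and 7.90% higher. Of 21 measured ligand genes, 3 fell and 4 rose. Vegfa, the vascular growth factor gene, read 338 and 306 on the sham arrays against 80.9 and 69.3 and fell 4.29-fold (limma adjusted p = 0.00507), and Hgf, which encodes the ligand of MET, read 21.8 and 18.9 against 82.2 and 67.0 and rose 3.66-fold (0.0270). Egf fell 2.06-fold and Nrg4 2.23-fold (adjusted p = 0.0227 and 0.0230). Nell2, the gene of the ligand of ROS1, was below background on all 8 caput arrays. Of 18 receptor and co-receptor genes, 6 rose and none fell. Fgfr2, an FGF receptor, read 256 and 257 against 689 and 669 and rose 2.65-fold (limma adjusted p = 0.00470), Met rose 2.52-fold (0.0120), Egfr 2.25-fold (0.0105) and the co-receptor gene Flrt3 3.46-fold (0.0212).

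Within the cascade itself, 17 of 25 listed adaptor and kinase genes were measured, and 2 rose and 1 fell. The RAF kinase gene Araf fell 2.00-fold (limma adjusted p = 0.0165), the scaffold gene Ksr1 rose 2.68-fold (0.0169) and the adaptor gene Gab1 rose 1.79-fold (0.0256). Of 21 feedback inhibitor genes other than the members, 5 rose and 1 fell. Socs3, an inhibitor of cytokine signalling, read 19.3 and 24.7 on the sham arrays against 413 and 206 and rose 13.4-fold (limma adjusted p = 0.00801). Il17rd, which encodes the FGF receptor inhibitor SEF, rose 3.27-fold (0.0162), Rgs2 rose 2.30-fold (0.0107), and Rasa1, a gene of a RAS-inactivating protein, fell 1.78-fold (0.0193).

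Of 24 measured ERK-responsive transcription factor and target genes other than the members, 3 rose and 1 fell. Fos, an immediate early gene, read 44.6 and 108 against 363 and 596 and rose 6.70-fold (limma adjusted p = 0.0489), Fosl2 rose 2.29-fold (0.0193), Ets2 rose 1.93-fold (0.0116) and Egr2 fell 2.13-fold (0.0171). All 7 measured genes of a list of 12 initial segment genes linked to ETV factors or to luminal testis factors fell. This list was chosen with earlier results of these data known. It shares Rnase10, Gpx5 and Lcn8 with the caput principal cell markers given above, so the counts are not separate. Rnase10, a secreted ribonuclease-family gene of the initial segment, read 10312 and 9692 against 24.4 and 29.7 (limma adjusted p = 0.000469). Adam28 fell 81.6-fold (0.00200), the lipocalin gene Lcn8 215-fold (0.00608) and Lcn9 at least 974-fold (0.00484).

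Whether testosterone propionate brought the members back within 12 hours was read against castrated vehicle in the caput. None of the 10 was called higher. Ros1 alone passed, and it was lower, where 0.649% of all genes were called lower. It read 106 and 126 with testosterone against 304 and 249 in castrated mice, a 2.38-fold fall (-1.25, interval -1.68 to -0.82, limma adjusted p = 0.0433). The 2 groups did not overlap. In the fit over all probe sets, 0 of the 28 member probe sets passed, so the Ros1 call was lost there. Leaving out any 1 of the 4 arrays, castrated replicate 1 or 2 or testosterone replicate 1 or 2, ended the call (adjusted p = 0.134 to 0.151), with the estimate between -1.40 and -1.11.

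None of the other members passed. Etv5 read 39.2 and 53.2 with testosterone, below both castrated arrays, a difference of -0.80 (interval -1.57 to -0.04) that did not pass (limma adjusted p = 0.243). Dusp6 read 146 and 141 (0.13, interval -0.41 to 0.66) and Dusp4 20.1 and 25.9 (0.04, interval -0.48 to 0.57). For these 3 genes the upper bound of the interval lies below the castration loss, so a full return to the sham level is outside it. Dusp5 read 59.5 and 61.8, above both castrated arrays, but the difference of 0.68 (interval -0.09 to 1.45) did not pass (limma adjusted p = 0.311). Etv4 read 9.08 and 1.20 by probe set 1443381_at, and 6.27 and 3.50 by 1423232_at, with no array above its background except 1443381_at on testosterone replicate 1, just over it. The inhibitor genes Spry2, Spred1 and Spred2 read 145 and 149.7, 155 and 193, and 345 and 381, in that order, with differences of -0.31, 0.01 and 0.30 from castrated mice, and Spry4 read 27.2 and 10.2 (-0.82, interval -2.43 to 0.80). On the same arrays 3 of the 7 caput principal cell markers rose with testosterone. Adam7, a metalloprotease-family gene of the caput epithelium named here after its values were seen, read 8643 and 8372 in sham, 219 and 291 in castrated and 5299.9 and 6705 in testosterone-treated mice. No ligand, receptor, cascade, feedback, target or initial segment gene of the lists passed in this comparison.

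Estradiol against castrated vehicle in the caput gave no call among the members, where 0% of all genes were called. The smallest adjusted p over all genes by limma was 0.0501, and 2637 genes had an unadjusted p under 0.05. Dusp4 read 33.3 and 36.4 with estradiol, above both castrated arrays (0.65, interval 0.12 to 1.18, limma adjusted p = 0.276). Spred2 read 504 and 352 (0.52, interval 0.02 to 1.03, limma adjusted p = 0.334). Etv5 read 87.8 and 53.0, Dusp6 182 and 133, Dusp5 37.6 and 44.5 and Ros1 265 and 309, with differences from castrated mice of -0.22, 0.25, 0.11 and 0.06. For the arrays of Etv5, Dusp5 and Ros1 the estradiol and castrated groups overlapped. Spry2, Spry4 and Spred1 had differences of -0.11, 0.00 and 0.08, also with overlap. Etv4 by 1443381_at read 8.97 and 11.1, above background on both arrays, against 4.66 and 6.04 in castrated mice, both below it. It did not pass (limma adjusted p = 0.701). By 1423232_at it read 17.6 and 3.61, above background on 1 array.

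Testosterone against estradiol, both in castrated mice, addressed whether the hormones differ. Ros1 was the only member past the threshold, where 1.00% of all genes were called lower with testosterone. It was 2.48-fold lower with testosterone than with estradiol (-1.31, interval -1.74 to -0.88, limma adjusted p = 0.0365), and the call ended when testosterone replicate 1 or 2 or estradiol replicate 1 or 2 was left out (adjusted p = 0.114 to 0.141). The Ros1 call was also lost in the fit over all probe sets, where 0 of the 28 member probe sets passed. Both comparisons with testosterone use the same 2 testosterone arrays. On these arrays the actin 3' over 5' ratio was 1.08 and 1.20, against 0.877 and 1.02 with estradiol and 0.790 and 1.02 in castrated mice, and the part of this in the Ros1 values was not tested. Among the other pathway genes, Vegfa read 61.7 and 75.4 with testosterone and 162 and 182 with estradiol, 2.52-fold lower with testosterone (limma adjusted p = 0.0341). Phlda1, a gene induced by growth factors, was 3.29-fold lower (0.0134) and Elk3, an ETS factor gene, 2.63-fold lower (0.0286). These were the only 3 calls over the 6 pathway lists.

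**Figure D3:**
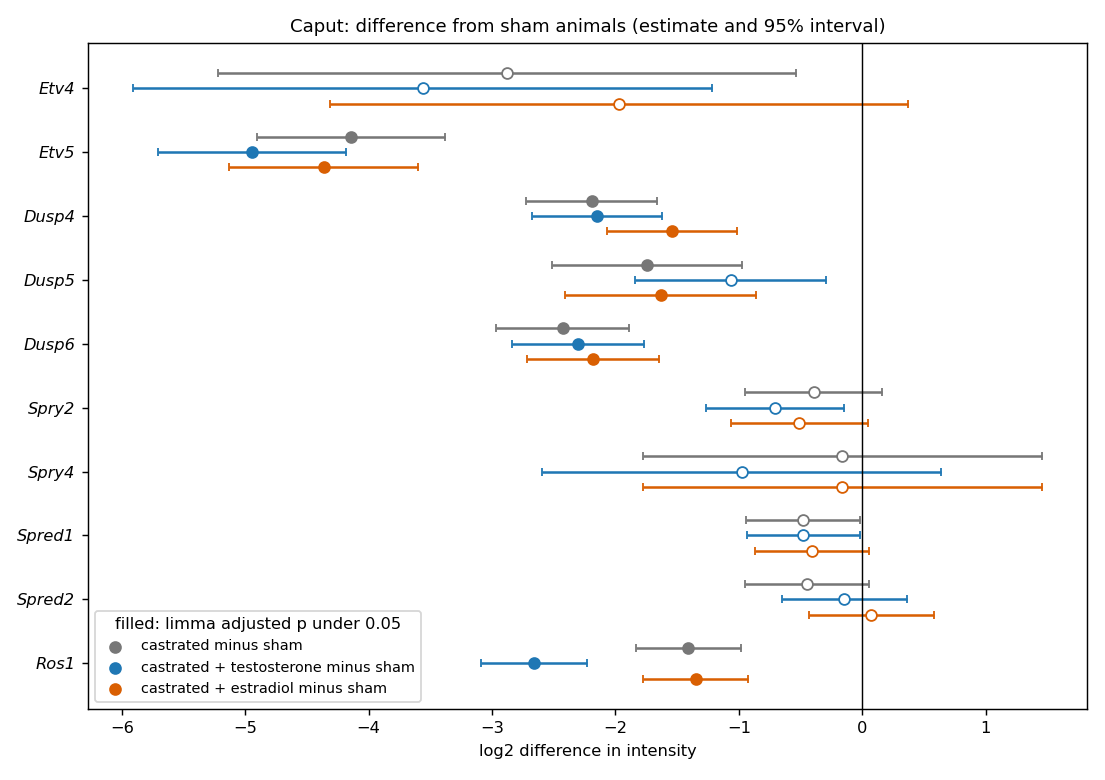
Log2 difference in intensity from sham mice in the caput for castrated mice with vehicle, testosterone or estradiol, with 95% intervals. Filled points passed limma's adjusted p of 0.05. Etv5, Dusp4, Dusp6 and Ros1 are filled in all 3 comparisons, which share the 2 sham arrays, and Ros1 lies farther from 0 with testosterone.

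Set against sham mice, 4 members were lower with testosterone, where 4.51% of all genes were called lower, and 5 with estradiol, where 7.26% were. The comparisons share the sham arrays, so their values are given side by side and are not independent. Etv5 was 30.8-fold lower with testosterone and 20.6-fold lower with estradiol (limma adjusted p = 0.00648 and 0.00400). Dusp6 was 4.93-fold and 4.54-fold lower (0.0115 and 0.00650), Dusp4 4.44-fold and 2.91-fold (0.0134 and 0.0128) and Ros1 6.33-fold and 2.55-fold (0.00709 and 0.0109). Dusp5 passed with estradiol (3.10-fold lower, limma adjusted p = 0.0261) and not with testosterone (-1.06, interval -1.84 to -0.29, limma adjusted p = 0.0904), and its testosterone and estradiol groups differed by 0.57 (interval -0.21 to 1.34, limma adjusted p = 0.420). Without sham replicate 1 or 2 no member passed for testosterone. Without testosterone replicate 1 or 2, 3 and 2 members passed. Without sham replicate 1 or 2, 2 and 3 members passed for estradiol, and without estradiol replicate 1, 2 did.

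Over the 8 caput arrays the members did not all vary alike. Etv5 and Dusp6 had the highest Pearson correlation of log2 intensity among all pairs of members, 0.974, followed by Etv5 with Dusp4 at 0.942 and Dusp6 with Dusp4 at 0.940. Spry4 and Dusp5 had the lowest, 0.046. The 8 arrays fall into treatment groups and share their sham arrays, so these are descriptions. Among 14622 genes above background on at least 4 caput arrays, the 5 most like Etv5 were Mfsd2a (0.994), Acap1, Gper1, Syk and Cox15 (0.992), and Dusp6 ranked 44. The genes most like Dusp6 were Actg2 (0.995), Ssr4, Glrx2, Lipi and St3gal2 (0.990). For Ros1 they were Slc3a2 (0.986), Def6, Il10rb, Susd1 and Atp6v1f (0.970), and for Etv4 Flacc1 (0.965), Gapdhs, Poglut1, Zfp11 and Cyp17a1 (0.954). The member nearest to Ros1 was Etv5, at rank 210, and the one nearest to Etv4 was Dusp6, at rank 332.

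The members' levels in the duct of sham mice were set against those in the caput of sham mice. Of the 10, 9 differed, 7 lower and 2 higher in the duct, where 54.4% of all genes were called in either direction. The median of all genes was itself -0.301 in the deposited scale and -0.0707 after quantile normalization. RNA of the 2 tissues was labelled with different kits and amounts, 50 ng for the duct and 10 µg for the caput, so tissue and labelling cannot be told apart. Markers of several cell types differed with the tissue. All 3 measured adipocyte markers of 5 listed were higher in the sham duct, with sums of 5314 to 6297 against 496 to 755. Of 6 measured Leydig and Sertoli cell markers 2 were higher, with sums of 3076 to 3508 against 334 to 348, while Hsd3b1, Amh and Dhh were below background on both sham duct arrays. Of 6 fibroblast and matrix markers 3 were higher (8282 to 11565 against 7425 to 7734), and 4 of 7 caput principal cell markers were lower. The part of these markers in the members' values was not tested. Ros1 read 2.07 and 21.9 in the duct, above background on 1 of the 2 arrays, against 735 and 726 in the caput (limma adjusted p = 0.000546). Etv5 read 75.2 and 109.9 in the duct and was 15.5-fold lower there than in the caput (limma adjusted p = 3.91e-06). Its other probe sets read 14.3 and 2.61, and 7.70 and 17.5, in the duct, with 1 array of each pair above background.

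Among the phosphatase genes, Dusp4 was 4.62-fold, Dusp5 2.39-fold and Dusp6 1.47-fold lower in the sham duct (limma adjusted p = 0.0282, 0.00657 and 0.0291). By their brightest probe sets the inhibitor genes split. Spry2 was 2.83-fold and Spred1 1.94-fold higher in the duct (0.000191 and 0.00416), while Spred2 was 2.65-fold and Spry4 2.60-fold lower (0.00131 and 0.0449). Spry4 was below background on sham duct replicate 1. Other probe sets did not all go the same way. Spred2 1441802_at was higher in the sham duct, at 125.2 and 100.7 against 37.2 and 39.7 in the sham caput. Spred2 1441415_at was lower, at 69.5 and 39.6 against 89.4 and 102.9, and the groups of 1436892_at overlapped. Those of Spry4 1445669_at overlapped too, at 17.9 and 36.8 against 31.8 and 23.8. With a gene's probe sets averaged, Spry2 (0.47), Spred2 (-0.13) and Spry4 (-0.47 on the log2 scale) did not pass (adjusted p = 0.654, 0.805 and 0.511). After quantile normalization Dusp4 and Spry4 did not pass (0.0983 and 0.111). Leaving out 1 array ended the calls of Dusp4 in all 4 cases, of Spry4 in all 4, of Dusp6 in 3 (sham caput replicate 1 and either sham duct array) and of Dusp5 in 1 (sham caput replicate 1).

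**Figure D4:**
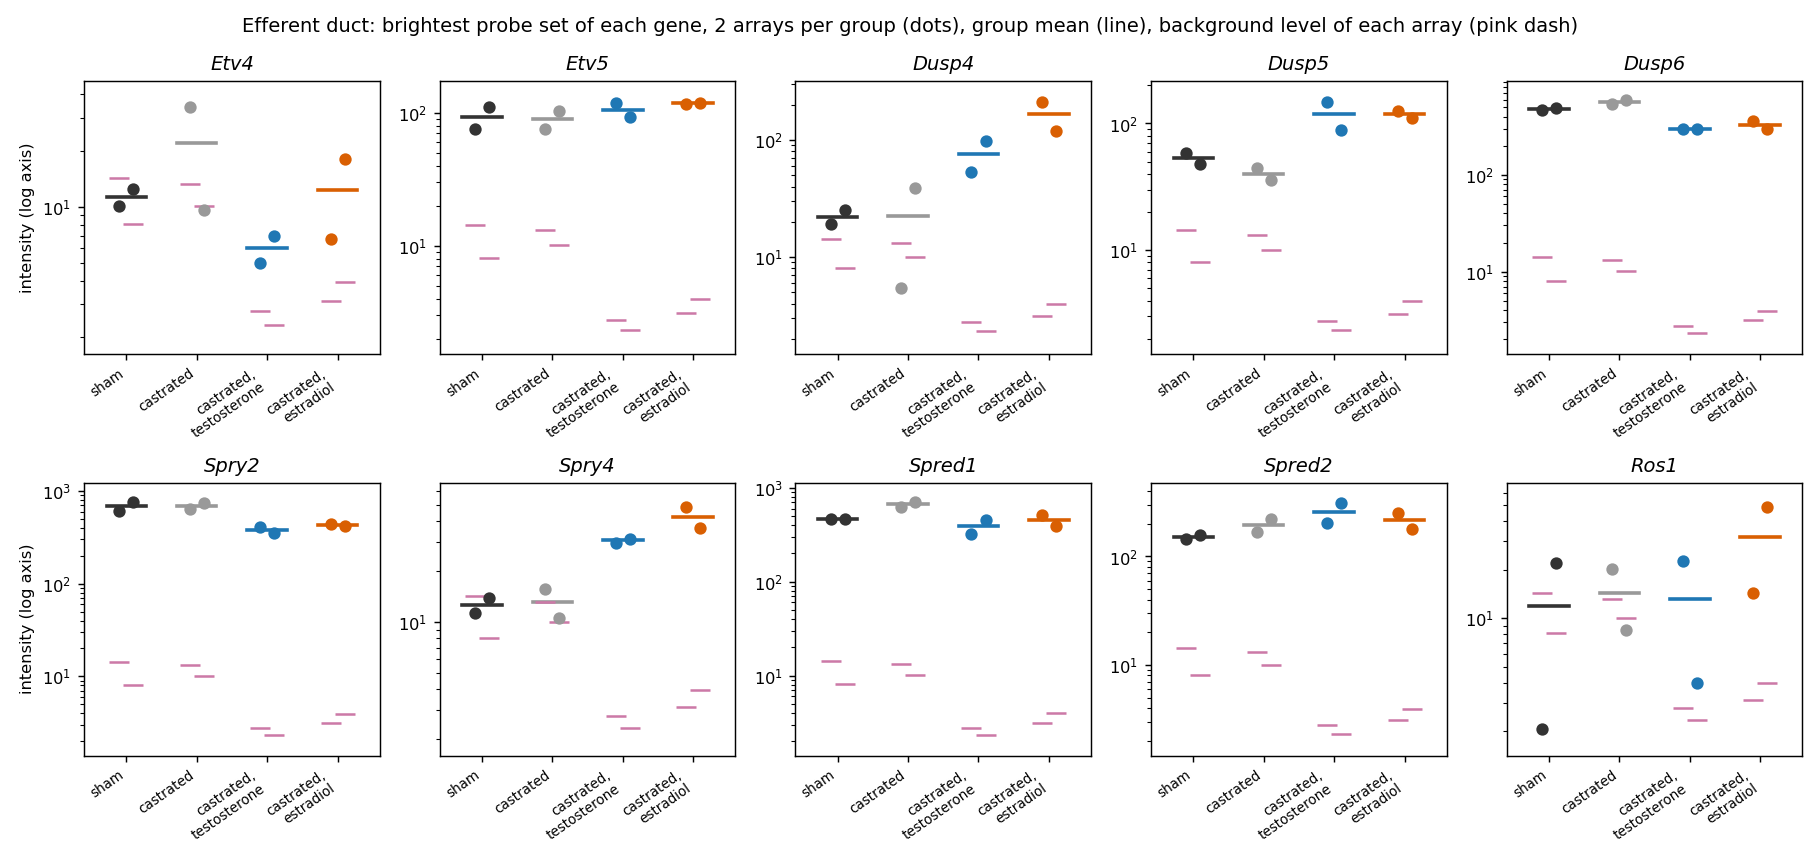
Intensity (log axis, its range set for each panel) of the 10 members in the efferent duct, drawn like the caput levels. Etv5 and Dusp6 sham and castrated arrays lie close together. Background lies between 8.09 and 14.3 for the sham and castrated groups and between 2.33 and 3.97 for the hormone groups.

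Castration in the efferent duct, against sham mice with vehicle, moved no member past the threshold, where 0.291% of all genes were called and 2879 had an unadjusted p under 0.05 by limma. Both groups belong to the arrays with the high actin ratio. Etv5 read 75.2 and 109.9 in sham and 75.5 and 104 in castrated mice, overlapping, with an interval of -0.74 to 0.67 for the log2 difference. Dusp6 read 467 and 495 against 533 and 588 (interval -0.22 to 0.66). Spry2 read 602 and 767 against 648 and 740.2 (interval -0.49 to 0.54). The falls of Etv5 and Dusp6 seen in the caput are outside these intervals. The sham duct level of Etv5 was, however, already near its castrated caput level of 90.3 and 70.0. A fall of caput size from there would end below background (13.2 and 10.1 on the castrated duct arrays), so its full size could not be read. Spry4 read 11.4 and 13.9 against 15.7 and 10.6 (interval -0.65 to 0.73), with overlap, and Spred2 read 145 and 158 against 169 and 223 (interval -0.41 to 1.13), without.

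Dusp5 read 58.6 and 48.1 against 44.7 and 35.5 (-0.42, interval -1.17 to 0.34), and Spred1 466 and 468 against 629 and 708 (0.52, interval -0.12 to 1.15), each without overlap. Dusp4 read 19.3 and 25.0 against 5.48 and 39.0, Etv4 10.1 and 12.4 against 34.3 and 9.56 and Ros1 2.07 and 21.9 against 20.1 and 8.44. Arrays of 1 group lay far apart for each of these 3 genes, and their intervals of -2.95 to 1.77, -1.15 to 2.54 and -2.64 to 4.55 leave a change in either direction undetected at this number of arrays. No gene of the other pathway lists passed in the castrated duct. Caput principal cell markers summed to 2997 to 6876 in the sham duct and 42.7 to 170.0 in the castrated duct, where Adam7 and Crisp4 were below background on both arrays.

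The castration effect itself was then compared between tissues, the change in the duct minus the change in the caput, in 1 model of 16 arrays. Etv5 and Dusp6 differed. These 2 of 10 members were called higher, where 1.27% of all genes were. For Etv5 the difference was 4.11 on the log2 scale (interval 3.16 to 5.05, limma adjusted p = 0.00319). Its sham duct level was already near its castrated caput level, and a fall of caput size from there would end below background. For Dusp6 the difference was 2.65 (interval 2.06 to 3.24, limma adjusted p = 0.00310). With a gene's probe sets averaged the Etv5 difference was 2.81 (adjusted p = 0.0435). That average includes values below background in the castrated duct. There 1420998_at read 1.65 and 5.80, both below it, and 1450082_s_at read 0.373 on 1 array. The size of the averaged difference is therefore not settled. With a block for arrays of the same treatment and replicate number in both tissues, neither passed (adjusted p = 0.0726 and 0.0713). The labels say that both tissues were collected but not that a number follows the animal.

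The other 8 estimates were above 0 and did not pass. Etv4 had 3.58 (interval 0.75 to 6.40, limma adjusted p = 0.162), with both castrated caput arrays below background, so its size is not settled. By 1423232_at both sham duct arrays were below background as well, and no difference is given for that probe set. Spred1 had 1.00 (interval 0.31 to 1.69, limma adjusted p = 0.119) and Dusp5 1.33 (interval 0.34 to 2.31, limma adjusted p = 0.139). The estimates of Dusp4 (1.61) and Ros1 (2.36) came with intervals of -0.72 to 3.94 and -1.14 to 5.87, so a difference between tissues was not shown for these genes although they passed in the caput and not in the duct.

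**Figure D5:**
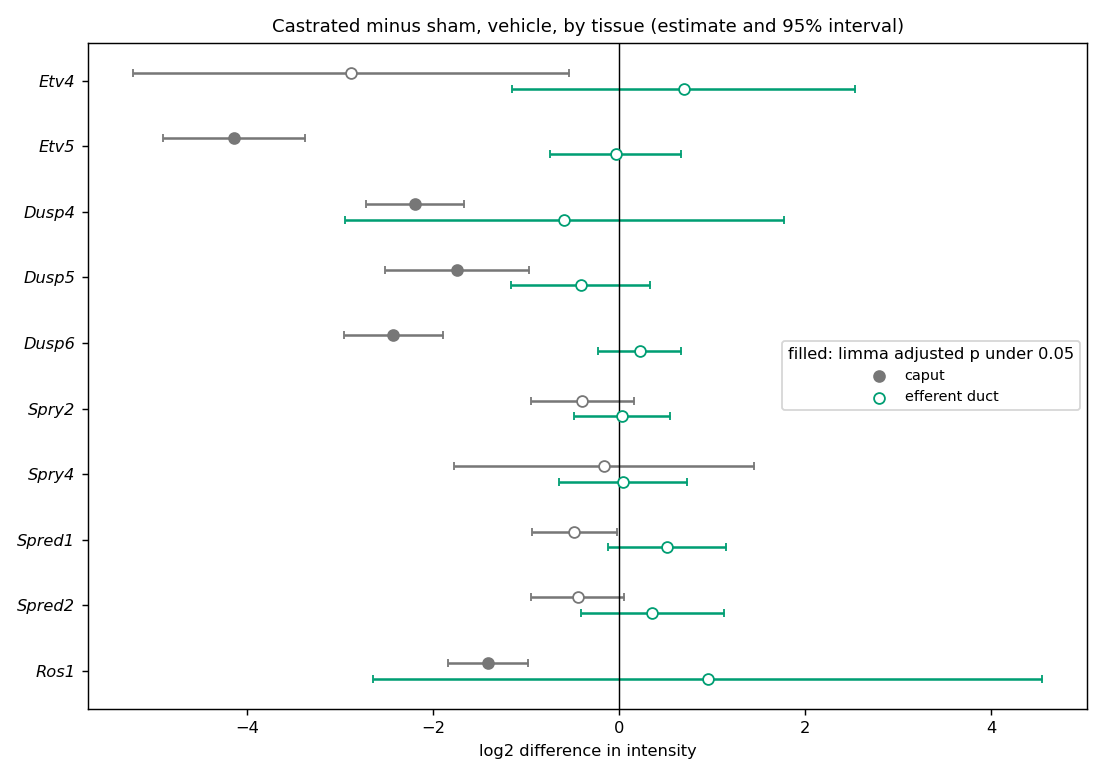
Log2 difference in intensity, castrated minus sham with vehicle, in the caput (grey) and the efferent duct (green), with 95% intervals. Filled points passed limma's adjusted p of 0.05. The caput and duct intervals of Etv5 and of Dusp6 do not overlap, and no duct point is filled.

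In the duct, each hormone was compared with castrated vehicle, which crosses from arrays with a high actin ratio (castrated, 3.11 to 3.87 over the vehicle arrays) to arrays with a low one (0.913 to 1.93). Large parts of the genome were called, 35.5% of all genes with testosterone and 30.7% with estradiol, and the median of all genes was 0.226 and 0.245, or -0.0263 and -0.0413 after quantile normalization. The castrated arrays also had the higher background and a brightest intensity of 19967 and 18158. That intensity was 3218 and 3949 with testosterone and 4420 and 4517 with estradiol. The share of the hormone and of these array differences in the members' values cannot be told apart. With testosterone 4 of 10 members passed, 2 in each direction, and with estradiol 4, of which 3 rose. These shares lie near those of all genes. The other pathway lists split as well with testosterone: 2 of 21 ligand genes rose and 3 fell, 6 of 18 receptor genes rose and 3 fell, 7 of 17 cascade genes rose and 3 fell, 6 of 21 feedback genes rose and 5 fell, 5 of 24 target genes rose and 4 fell, and 1 of 7 initial segment genes rose. The MEK gene Map2k2 had the smallest adjusted p among the cascade genes and rose 11.6-fold (limma adjusted p = 0.00537), the FGF receptor gene Fgfr1 rose 4.38-fold (0.00714), the EGFR inhibitor gene Errfi1 fell 2.82-fold (0.00582), Jun fell 3.31-fold (0.00582) and the ligand gene Pdgfa fell 3.91-fold (0.00624). Macrophage markers were higher in the hormone groups (5 of 6 with testosterone, summed intensity 2978 to 4056 against 1101 to 1749 in castrated mice), as were 4 of 5 endothelial markers (854 to 879 against 344 to 638). With estradiol 4 of 6 macrophage markers (2996 to 4048) and 3 of 5 endothelial markers (734 to 1168) were higher. Of 6 fibroblast and matrix markers 4 were higher and 1 lower with each hormone, with sums of 6120.4 to 7223 in castrated mice, 8019.8 to 8490.4 with testosterone and 8978 to 9579 with estradiol. Of 6 Leydig and Sertoli cell markers 1 was lower with each hormone, with sums of 2828 to 2963, 703 to 820.3 and 544 to 593 in the same order. Of 3 adipocyte markers 2 were higher and 1 lower with each hormone, with sums of 5483 to 7683, 4686 to 5078 and 4980.4 to 6006. Caput principal cell markers summed to 42.7 to 170.0 in castrated mice, 216 to 2564 with testosterone and 122 to 795 with estradiol. Sums of sperm and germ cell markers were 77.8 to 86.7, 115 to 1102 and 143 to 278 in that order. Those of basal cell markers were 1691 to 1895, 906 to 1060 and 1314 to 1497. For duct epithelium the sums were 4191 to 4515, 3097 to 4609 and 2787 to 3036. The part of all these markers in the members' values was not tested.

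Dusp5 read 44.7 and 35.5 in castrated mice, 147 and 89.2 with testosterone and 126 and 111 with estradiol. It rose by 1.52 and 1.57 on the log2 scale (limma adjusted p = 0.0157 and 0.0166), but after quantile normalization the differences were 0.63 and 0.80 and did not pass (0.173 and 0.108). Spry4 read 15.7 and 10.6, 29.7 and 31.4 and 48.3 and 36.2 in the same order and rose by 1.24 and 1.69 (0.0218 and 0.0111). Its castrated values lay just above those arrays' backgrounds of 13.2 and 10.1, so the size of its rise is not settled. Quantile normalization gave 0.92 and 1.34, of which the first did not pass (adjusted p = 0.0991), and the mean of its 4 probe sets gave 0.07 and 0.95 (0.932 and 0.258). The Spry4 call for testosterone ended without castrated replicate 2 (0.0701), testosterone replicate 1 (0.0845) or testosterone replicate 2 (0.0807), with an intensity trend (0.0581) and in the fit of 16 arrays (0.0763). That for estradiol ended without estradiol replicate 1 (0.0690). The Dusp5 calls ended without castrated replicate 2 (0.0609 for testosterone and 0.0627 for estradiol), testosterone replicate 1 (0.0610), estradiol replicate 1 (0.0918) or estradiol replicate 2 (0.0668).

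Dusp4 was the most variable of the phosphatase genes here. It read 5.48 and 39.0 in castrated mice, 53.6 and 98.4 with testosterone and 212 and 119 with estradiol. The rise with estradiol was 3.44 (interval 1.08 to 5.81, limma adjusted p = 0.0436), and that with testosterone did not pass (2.31, 0.110). It depended on castrated replicate 1, at 5.48 below its background: without it the estradiol difference was 2.03 (adjusted p = 0.0677). The call also ended without estradiol replicate 1 (0.182) or 2 (0.110), and after quantile normalization (3.12, 0.119). Without castrated replicate 2 the testosterone difference was 3.73 and passed (adjusted p = 0.0194).

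Dusp6 and Spry2 went the other way. Dusp6 read 533 and 588 in castrated mice, 294 and 297 with testosterone and 358 and 301 with estradiol, and fell by 1.89-fold and 1.71-fold (limma adjusted p = 0.0148 and 0.0271). Spry2 read 648 and 740.2, 413 and 354 and 437 and 419 and passed with testosterone (1.81-fold lower, 0.0270) but not with estradiol (-0.69, 0.0538). Leaving out any 1 of the 4 arrays ended the Spry2 call (adjusted p = 0.0601 to 0.105). It ended the Dusp6 call for estradiol too (0.0625 to 0.123), and for testosterone in all cases but castrated replicate 1 (0.0523 to 0.0706). Etv5 read 118 and 93.6 with testosterone, 117 and 119 with estradiol, and passed in neither comparison (0.24 and 0.41). Ros1 read 22.6 and 3.98 with testosterone and 14.3 and 49.2 with estradiol, and Etv4 read 5.02 and 6.97, and 6.71 and 18.0, so that arrays of 1 group again lay apart, and neither gene passed.

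Probe sets of Spred1 and Spred2 disagreed in the duct. In the fit over probe sets, 8 of the 28 passed for testosterone, 2 higher and 6 lower, where 28.3% of all probe sets were called. Of the 6, 1443652_x_at of Spred1 was below background on both castrated arrays and gives no fold. Spred1 1423162_s_at read 374 and 401 in castrated mice against 171 and 146 with testosterone (-1.29, limma adjusted p = 0.0123). Spred1 1428777_at read 114 and 128 against 222 and 155. The first is lower and the second higher in intensity, for the same gene and the same arrays, and the brightest probe set, 1423160_at, read 629 and 708 against 324 and 457 without passing (limma adjusted p = 0.0588). Spred2 1441802_at read 318 and 136 against 49.4 and 56.9 and passed (-1.97, limma adjusted p = 0.0244). Lower in intensity too were Spred2 1436892_at, at 109 and 169 against 53.6 and 60.2, and 1441415_at, at 53.1 and 33.9 against 17.4 and 21.1. The brightest Spred2 probe set, 1434403_at, went the other way, at 169 and 223 against 205 and 312 (0.38, limma adjusted p = 0.408).

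Testosterone and estradiol did not differ past the threshold in the duct for any member, where 0% of all genes were called and 1467 had an unadjusted p under 0.05 by limma. The widest member interval was that of Ros1 (-5.08 to 2.11) and the narrowest that of Dusp6 (-0.59 to 0.29). Nell2 read 7.95 and 8.40 with testosterone and 31.6 and 40.1 with estradiol, above background on all 4 arrays, and was not called. Of the other pathway lists none had a call here either. The arrays of these 2 groups share the low actin ratio.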

How the data were processed

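The authors' deposited table held 1 intensity per probe set for 45101 probe sets on 16 arrays. RMA is named, without a version, per the submitters' processing notes, but the deposited intensity values are on a linear scale and their trimmed mean is 125 on every array, so the scaling is described here from the values. RNA was extracted with TRIzol and labelled with Ovation reagents for the duct and with the One-Cycle protocol for the caput, per the labels. Arrays give no depth, and their number, 2 per group, limits the precision.

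Deposited intensities were taken to log2, with no pseudocount. Probe sets with exactly 1 gene symbol in the platform annotation were used (34958, while 932 had several and 9211 none), and a gene was represented by its brightest probe set over all arrays (18194 genes, 9012 of them with more than 1). Linear models were fitted over all genes with limma 3.58.1 in R 4.3.3, 1 model of 8 arrays and 4 groups per tissue and 1 model of 16 arrays for contrasts between tissues. Benjamini-Hochberg adjusted p-values were taken over all genes, with a threshold of 0.05 and 95% intervals. A second fit used every single-symbol probe set as a row. The fits were tested on simulated data. Other steps used Python 3.11.15.

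"At least" folds replace a group whose arrays were all below background by its background level. The members and gene lists were chosen with earlier results of these data known. Members past the threshold are named in every comparison, and the remaining members in some. Of the other lists, up to 4 genes per list and comparison with the smallest adjusted p are named, and Nell2 whatever its values. Likeness names the 5 genes with the highest correlation to each of 4 members. Alternatives were other normalization, filter, floor, variance prior, summary of probe sets, arrays in the fit, replicate block and each array left out.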

Additional observations from a re-analysis of the deposited data

Results flagged for a closer look

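The castration effect of 2 members differed between the tissues by a test of the difference itself. For Etv5 the change in the efferent duct minus that in the caput was 4.11 on the log2 scale (limma adjusted p = 0.00319). The change was -0.04 in the duct and -4.14 in the caput. Sham and castrated arrays read 75.2 and 109.9 against 75.5 and 104 in the duct and 1429 and 1385 against 90.3 and 70.0 in the caput. A fall of caput size from the sham duct level of Etv5 would end below the duct background. For Dusp6 the difference was 2.65 (limma adjusted p = 0.00310), with 467 and 495 against 533 and 588 in the duct and 813 and 615 against 133 and 129.9 in the caput. The tissues were labelled by different protocols, and the duct arrays had an actin 3' over 5' log2 ratio of 3.11 to 3.87 against 0.636 to 1.02 in these caput groups. The part of either in the differences was not tested.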

How the results depend on the processing

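No direction of a called member turned under any alternative, and over all members, comparisons and alternatives 1273 values stayed on the same side of the threshold, 131 lost a call and 32 gained one. Using only the arrays compared left 0 of the 5 calls for castrated against sham in the caput, 0 of 1 for testosterone against castrated, 0 of 1 for testosterone against estradiol, 0 of 4 for testosterone and 0 of 5 for estradiol against sham, 0 of 4 for testosterone and 1 of 4 for estradiol against castrated in the duct; fewer arrays leave fewer degrees of freedom. With 1 fit of 16 arrays, 3 remained for castrated against sham and 3 for estradiol against sham in the caput, and 0 for testosterone against castrated or against estradiol. The mean of all probe sets gave 0 for both of those testosterone comparisons, and 2 and 1 for testosterone and estradiol in the duct. Quantile normalization gave 2 and 2 in the duct. An intensity trend in the variance prior raised testosterone against sham from 4 to 7. Except where fewer arrays entered, the cause was not tested.

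Left out in turn, each array gave 3 to 4 calls for castrated against sham in the caput, 0 to 0 for each hormone against castrated and for testosterone against estradiol, 0 to 3 for testosterone and 2 to 4 for estradiol against sham, 0 to 0 for castration and for testosterone against estradiol in the duct, 0 to 3 and 0 to 2 for testosterone and estradiol against castrated there, 5 to 7 for the sham tissues and 2 to 3 for the difference in castration effect. The alternatives for all probe sets of the members were chosen after seeing the data: the 8 calls became 5 with 16 arrays, 0 with only the arrays compared and 0 to 1 with an array left out.

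Deviations from the group means of same-numbered arrays correlated at -0.0942 to 0.0929 in the caput, -0.166 to 0.156 in the duct and 0.00555 to 0.112 between tissues. A small shared effect, or one that differs by gene or tissue, would also give values near 0. Whether the numbers pair the samples is therefore not settled. With the replicate block the calls were 0 for testosterone against castrated and 0 against estradiol in the caput (Ros1, adjusted p = 0.0968 and 0.0801), 2 for estradiol against castrated in the duct (Dusp4 and Dusp6 lost, 0.0542 and 0.0520) and 0 for the difference in castration effect. Dusp5 was lost for castrated and for estradiol against sham in the caput (0.0556 and 0.0547), which left 4 calls in each, and Dusp4 for the sham tissues (0.0540), which left 8. Over all genes, the calls for castrated against sham ranged from 0 to 4408 in the caput and from 0 to 991 in the duct, and those for testosterone against castrated from 0 to 1687 and from 2339 to 8176. In the duct the vehicle arrays had 62.1% to 71.2% of probe sets above background and the hormone arrays 81.7% to 87.6%. This limits what can be read of Ros1, Etv4, Dusp4 and Spry4 there.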
